A study of Mus musculus with 12 samples.

Results

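Cyclic nucleotide phosphodiesterases are the enzymes that break down cAMP and cGMP, and 10 of their genes, Pde3a, Pde3b, Pde4a, Pde4b, Pde4d, Pde5a, Pde7a, Pde7b, Pde8a and Pde10a, were followed here among the 55487 genes of an RNA-seq table. They were chosen by gene symbol, as a family around Pde3b, whose rise in Fto-knockdown cells at mitotic clonal expansion brought the family to attention; no symbol was repeated in the table. That MCE difference is therefore a description here and carries no test. The cells were 3T3-L1, a mouse line labelled as fibroblast that turns into fat cells after hormonal induction, and expressed a scrambled hairpin as control (shScram) or one that targets Fto, the gene of an RNA demethylase (shFTO). Hairpins came from a lentiviral vector with a U6 promoter, followed by puromycin selection, and the labels do not say which Fto hairpin these libraries carried. Both lines were sequenced as preadipocytes (Pre), at mitotic clonal expansion (MCE) and at differentiation (Diff), with 2 libraries in each of the 6 groups. Both lines were induced with the cocktail MDI, which combines insulin and dexamethasone with IBMX, itself an inhibitor of many phosphodiesterases. By the authors' methods, MDI was later replaced by a maintenance medium with insulin, for which neither IBMX nor dexamethasone is listed. Cells at Diff had thus left MDI.

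As background, adenylyl cyclases make cAMP when receptors activate the stimulatory G protein, and cAMP then acts through protein kinase A and Epac. Phosphodiesterases end that signal, and each family has its own substrate and control. PDE3B is the membrane-bound enzyme of fat cells and liver that insulin activates through AKT, which lowers cAMP and restrains the release of fatty acids from stored fat; PDE3A is its close relative of heart, vessels and oocytes. PDE4A, PDE4B and PDE4D degrade cAMP only and are the targets of rolipram. PDE7 and PDE8 enzymes also act on cAMP only, PDE5A acts on cGMP only, and PDE10A, known best from the striatum, acts on both.

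Values are TPM, a share of all transcripts in a library that is corrected for gene length, so levels of different genes can be set side by side. How deeply each library was sequenced cannot be read from TPM and is unknown here; from 20853 to 24018 genes had a value above 0. Fto in shFTO libraries was 9.96%, 10.8% and 10.1% of its shScram mean at Pre, MCE and Diff. Replicate 1 of shScram at Diff is called shScram in its title and Fto knockdown in its treatment entry; the title was followed, and its Fto level was 73.5 TPM beside 70.8 TPM in the second library. The shScram Pre libraries agreed less with each other (correlation of log2(TPM + 1) across genes 0.939) than those of the other groups (0.990 to 0.993). Summed fibroblast markers lay between 5554 and 9841 TPM in every library, summed endothelial markers reached at most 1.15 TPM and epithelial ones 1.12 TPM. Adipocyte markers summed to 1471 and 1484 TPM in control cells at Diff and to 396 and 433 TPM in knockdown cells, with 6 of 7 lower and 0 higher by limma and none at 0; in bulk RNA, fewer cells of a type and less RNA per cell cannot be told apart. Smooth muscle markers, 5 genes of which Myh11 and Cnn1 had means under 1 TPM in every group, summed at Diff to 31.3 and 40.8 TPM in control and 100.7 and 102.3 TPM in knockdown cells, and in preadipocytes to 315 and 468 against 1070 and 1161 TPM. The part of these marker differences in the phosphodiesterase results was not tested.

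Of the 10 members, 8 reached 1 TPM in at least 2 of the 12 libraries and were tested with limma on log2(TPM + 1) together with 15968 genes in all; a call needs a Benjamini-Hochberg adjusted p under 0.05. This scale understates changes at low TPM. Pde8a passed only through the shScram preadipocyte libraries and Pde5a through 1 library each of shScram Pre and shFTO Diff, while Pde3a and Pde7b did not pass. Nothing in the labels says that the 2 libraries of a group came from separate cultures, so p-values measure the spread between these libraries, which may be technical.

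Pde3b was low in control cells at every stage and high in knockdown cells, most of all after induction. Pde3b (ENSMUSG00000030671) lies on chromosome 7 of GRCm38 from 114415281 to 114539251, plus strand, with no other annotated gene over it. In shScram it stood at 1.88 and 1.31 TPM in preadipocytes, 1.76 and 1.36 TPM at MCE, and 0.735 and 1.09 TPM at Diff. In shFTO it stood at 9.23 and 11.6 TPM in preadipocytes, 48.3 and 47.9 TPM at MCE, and 44.5 and 46.8 TPM at Diff. Every shFTO library was thus above every shScram library, and the order of the 6 groups was shFTO MCE, shFTO Diff, shFTO Pre, then the 3 shScram groups, of which Pre and MCE overlapped. The ratio of shFTO to shScram means was 6.54 in preadipocytes, 30.8 at MCE and 49.9 at Diff.

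**Figure D1:**
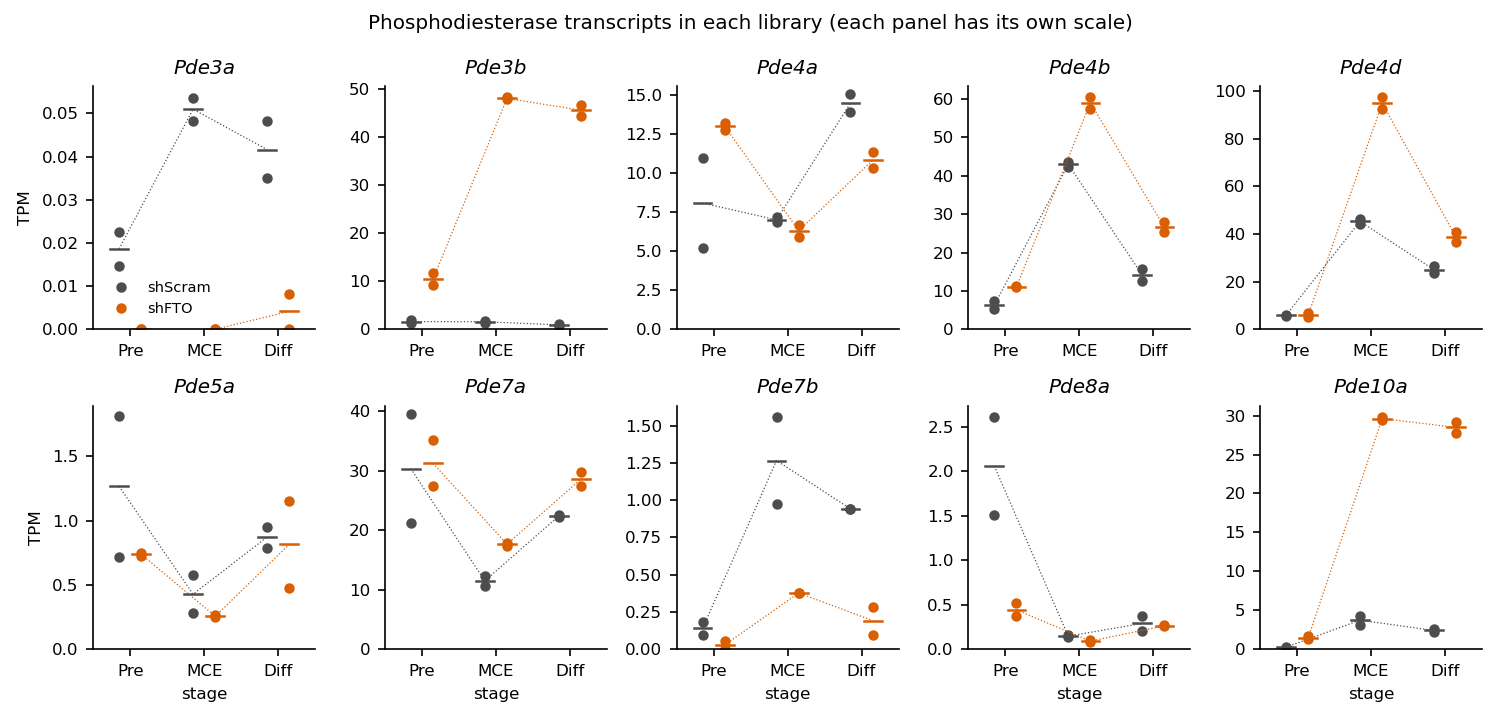
TPM of the 10 phosphodiesterase genes (y axis, each panel with its own scale from 0) at Pre, MCE and Diff (x axis); points are libraries, short bars the mean of 2, grey shScram and orange shFTO. Pde3b stays under 2 TPM in every shScram library and exceeds 44 TPM in shFTO at MCE and Diff, and Pde10a separates the lines at the same stages.

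In preadipocytes, whose values the choice of Pde3b did not use, Pde3b was 2.14 higher in shFTO on the log2(TPM + 1) scale (SE 0.18, 95% interval 1.73 to 2.55, limma adjusted p = 0.000194, n = 2 libraries a group). Here and at Diff, the fit takes its spread from all 12 libraries, those at MCE included. Intervals and p-values are therefore not independent of that choice. Without either shScram preadipocyte library in turn the difference was 2.30 and 1.98, and both were called. A fit on the 4 preadipocyte libraries alone gave the same difference with an adjusted p of 0.142. At Diff the difference was 4.61 (95% interval 4.20 to 5.02, limma adjusted p = 1.23e-06). It was 4.48 without the library whose labels disagree (limma adjusted p = 5.22e-05).

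The gap between the lines widened from Pre to Diff. The knockdown difference at Diff exceeded that at Pre by 2.47 (95% interval 1.89 to 3.05, limma adjusted p = 0.000986), and Pde3b was called in the same direction under all 21 alternatives tried. Within shFTO, Pde3b rose by 2.04 from Pre to Diff (95% interval 1.63 to 2.45, limma adjusted p = 9.19e-05). Within shScram the change was -0.44 (95% interval -0.85 to -0.03, limma adjusted p = 0.106), so control cells showed no called change over the same course; with quantile normalization it was -0.64 and past the threshold (adjusted p = 0.0343), as was -0.60 without replicate 2 of shScram Pre (adjusted p = 0.0164). At MCE, described only, the difference between the lines was 4.27 on the log2(TPM + 1) scale, the 4th highest of the 15968 genes tested, and Pde10a, at 2.71, was 43rd.

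Pde3a, the other PDE3 gene, was close to the floor of the table. Its shScram libraries held 0.0147 to 0.0537 TPM, and 5 of the 6 shFTO libraries listed it at 0, the exception being 0.00826 TPM in replicate 1 at Diff. PDE3 transcripts in these cells were thus almost wholly Pde3b.

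Pde10a, like Pde4d, rose from Pre to MCE in both lines, and by more in shFTO on the log2(TPM + 1) scale. The MCE mean of Pde10a was 15.3 times its Pre mean in shScram and 20.3 times in shFTO. It stood at 0.282 and 0.203 TPM in shScram preadipocytes, 3.12 and 4.31 TPM at MCE, and 2.53 and 2.26 TPM at Diff. The shFTO libraries held 1.31 and 1.62 TPM at Pre, then 29.5 and 29.8 TPM, then 29.2 and 27.8 TPM. The lines did not overlap at any stage, and the means were 6.03, 7.97 and 11.9 times as high in shFTO at Pre, MCE and Diff.

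On the log2(TPM + 1) scale Pde10a was 0.98 higher in shFTO preadipocytes (95% interval 0.61 to 1.36, limma adjusted p = 0.0044) and 3.12 higher at Diff (2.75 to 3.49, limma adjusted p = 4.53e-06). The preadipocyte call was lost in the fit on those 4 libraries alone (adjusted p = 0.173). The difference at Diff exceeded that at Pre by 2.14 (1.61 to 2.66, limma adjusted p = 0.0012), but by 1.33 with a pseudocount of 0.1 (adjusted p = 0.0504). From Pre to MCE Pde10a rose by 1.91 in shScram (limma adjusted p = 5.04e-05) and by 3.64 in shFTO (limma adjusted p = 1.98e-06), and from MCE to Diff it differed by -0.46 (95% interval -0.83 to -0.09, limma adjusted p = 0.0685) and -0.05 (-0.43 to 0.32, limma adjusted p = 0.849), the first of which was called in 6 of 21 alternatives. Pde10a (chromosome 17, 8525372 to 8986648, plus strand) is overlapped on the other strand by Gm17087 and a pair of pseudogenes, and whether counting used strand is not stated, so its level is uncertain to that extent.

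Among the cAMP-specific PDE4 genes, Pde4b and Pde4d followed the induction itself. Pde4d stood at 6.14 and 5.70 TPM in shScram preadipocytes, 46.4 and 44.2 TPM at MCE, and 23.6 and 26.4 TPM at Diff. In shFTO it stood at 5.10 and 7.01 TPM, then 97.5 and 92.3 TPM, then 36.5 and 40.7 TPM. The lines overlapped in preadipocytes and were apart at both later stages, with shFTO above.

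Pde4d rose from Pre to MCE by 2.74 in shScram (95% interval 2.40 to 3.09, limma adjusted p = 3.89e-06) and by 3.78 in shFTO (3.43 to 4.12, limma adjusted p = 9.64e-07), then fell to Diff by 0.83 and by 1.28 (limma adjusted p = 0.00493 and 0.000547). Between the lines it differed by 0.02 in preadipocytes (95% interval -0.33 to 0.36, limma adjusted p = 0.947), with a sign that turned under median-ratio scaling, quantile normalization and a GC correction. It was 0.61 higher in shFTO at Diff (0.26 to 0.95, limma adjusted p = 0.0209), a call lost when any 1 of the 4 Diff libraries was left out (0.53 to 0.69, adjusted p 0.0648 to 0.144). The difference at Diff against that at Pre was 0.59 (0.11 to 1.08, limma adjusted p = 0.139) and was called in 2 of 21 alternatives.

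Pde4b moved through the stages in the same order as Pde4d, and their 6 group means of log2(TPM + 1) had a Pearson correlation of 0.94, a description over groups that share libraries. Its shScram libraries held 7.35 and 5.20 TPM in preadipocytes, 42.4 and 43.6 TPM at MCE, and 15.8 and 12.5 TPM at Diff. The shFTO libraries held 10.9 and 11.3 TPM, then 60.7 and 57.5 TPM, then 25.2 and 27.9 TPM. Both lines peaked at MCE, and shFTO was above shScram in every library of the same stage.

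Pde4b rose from Pre to MCE by 2.61 in shScram and by 2.31 in shFTO (limma adjusted p = 9.39e-06 and 2.23e-05) and fell from MCE to Diff by 1.55 and by 1.13 (limma adjusted p = 0.000458 and 0.00175). It was 0.75 higher in shFTO preadipocytes (95% interval 0.37 to 1.14, limma adjusted p = 0.0142) and 0.87 higher at Diff (0.49 to 1.25, limma adjusted p = 0.00663). These gaps differed by 0.12 (-0.42 to 0.66, limma adjusted p = 0.774), so no widening was detected. The preadipocyte call was lost without either shFTO Pre library (adjusted p 0.0726 and 0.0753), with quantile normalization (0.0834) and in the fit on the 4 preadipocyte libraries alone (0.289). The call at Diff was lost without replicate 2 of shScram Diff (0.0618) or of shFTO Diff (0.0601).

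Pde4a, the third PDE4 gene, did not rise with them at MCE. It stood at 5.19 and 11.0 TPM in shScram preadipocytes, 7.18 and 6.84 TPM at MCE, and 15.1 and 13.9 TPM at Diff. In shFTO it stood at 12.8 and 13.2 TPM, then 5.92 and 6.70 TPM, then 10.3 and 11.3 TPM. Its shFTO libraries were thus above those of shScram in preadipocytes and below them at MCE and Diff, with the shScram Pre libraries far apart.

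Between the lines Pde4a differed by 0.70 in preadipocytes (95% interval 0.11 to 1.29, limma adjusted p = 0.0716) and by -0.39 at Diff (-0.98 to 0.20, limma adjusted p = 0.337). Without replicate 2 of shScram Pre the first became 1.18 (adjusted p = 3.91e-05), without replicate 1 it was 0.23 (adjusted p = 0.254), and with a GC correction 0.034 (adjusted p = 0.822). The value at Diff was called in 4 of 21 alternatives. Pde4a fell by 0.94 from Pre to MCE in shFTO (limma adjusted p = 0.0252) and rose by 0.95 from MCE to Diff in shScram (limma adjusted p = 0.0281). Both calls were lost when a library of their own groups was left out, and the 0.85 rise from Pre to Diff in shScram (limma adjusted p = 0.0408) was called in 8 of 21 alternatives.

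Reference promoter windows could be read for 7 of the 10 members, 13 windows in all, each from 250 bases before to 50 bases after a RefSeq start on GRCm38.p6. None was available for Pde3b, Pde3a or Pde7a. The cAMP response element, the site that CREB proteins bind, was searched on both strands as TGACGTCA and as its shorter core TGACG, which the long form contains. The long form was in 1.79% of 32851 windows of this length and in 0 of the 13; the core was in 20.8% of windows and in 3 of the 13, in 1 window each of Pde4b, Pde4a and Pde8a. These stretches of 60 bases are shown because Pde4b and Pde4d climbed together at MCE while Pde4a and Pde8a showed no rise there; capitals mark the core, which ends 30, 46 and 80 bases before the start in Pde4b, Pde4a and Pde8a, and the Pde4d stretch is the 60 bases just before its start and holds none. A match is a description only, and gene-level TPM does not tell which start was used.
Pde4b, plus strand, chr4:102421493-102421552: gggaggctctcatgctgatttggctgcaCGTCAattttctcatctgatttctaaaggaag
Pde4a, plus strand, chr9:21184023-21184082: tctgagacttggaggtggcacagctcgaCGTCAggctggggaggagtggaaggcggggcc
Pde8a, plus strand, chr7:81213153-81213212: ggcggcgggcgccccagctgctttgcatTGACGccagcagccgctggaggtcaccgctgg
Pde4d, plus strand, chr13:108654117-108654176: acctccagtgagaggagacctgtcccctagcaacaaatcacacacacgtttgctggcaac

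The core thus stood before a gene that rose at MCE (Pde4b) and before 2 that did not, and was not found in the Pde4d window. The 2 Pde10a windows held no core either.

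Pde7a, which encodes a cAMP-specific enzyme, was the most abundant member in preadipocytes and dipped at MCE. It stood at 39.5 and 21.2 TPM in shScram preadipocytes, 12.4 and 10.6 TPM at MCE, and 22.2 and 22.6 TPM at Diff. In shFTO it stood at 27.4 and 35.2 TPM, then 17.9 and 17.4 TPM, then 27.5 and 29.8 TPM. The lines overlapped in preadipocytes, where the control libraries were furthest apart, and shFTO was above shScram at MCE and Diff.

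Pde7a fell from Pre to MCE by 1.27 in shScram (95% interval -1.84 to -0.70, limma adjusted p = 0.00468) and by 0.78 in shFTO (-1.35 to -0.21, limma adjusted p = 0.0454); the first was lost in the fit on its own 4 libraries (adjusted p = 0.138), and the second was called in only 7 of 21 alternatives, with adjusted p up to 0.248. It was lost with median-ratio scaling (-0.55, adjusted p = 0.176), with the replicate number as a block (adjusted p = 0.0604) and without any 1 of its own 4 libraries. In shScram it rose again by 0.91 to Diff (limma adjusted p = 0.029), called in 12 of 21 alternatives and not with median-ratio scaling (0.65, adjusted p = 0.125). The lines differed by 0.10 in preadipocytes (-0.47 to 0.66, limma adjusted p = 0.79) and by 0.34 at Diff (-0.23 to 0.91, limma adjusted p = 0.389). The first was 0.53 without replicate 1 of shScram Pre (adjusted p = 0.0252), and the second was called in 3 of 21 alternatives. Antisense gene Gm16093 overlaps Pde7a and may share its reads.

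Pde7b, the second PDE7 gene, was low and lay on the opposite side. In shScram it was 0.0958 and 0.183 TPM in preadipocytes, 1.56 and 0.976 TPM at MCE, and 0.939 and 0.943 TPM at Diff. In shFTO it was 0.0550 and 0 TPM, then 0.379 and 0.374 TPM, then 0.285 and 0.0975 TPM. Both shFTO libraries were below both shScram libraries at each stage, without a test since the gene was under the filter.

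Pde8a, which encodes a cAMP phosphodiesterase that IBMX does not inhibit, was a preadipocyte transcript. It stood at 2.61 and 1.51 TPM in shScram preadipocytes and at 0.514 and 0.367 TPM in shFTO preadipocytes. At MCE and Diff all 8 libraries of both lines lay between 0.0794 and 0.369 TPM. Pde8a was 1.07 lower in shFTO preadipocytes (95% interval -1.51 to -0.62), 0.80 lower without replicate 1 of shScram Pre and 1.33 lower without replicate 2. It passed the filter only through shScram preadipocytes, so a difference from that group was built in, and these values are a description with no test. Likewise described only, the difference from Pre in shScram was -1.39 at MCE and -1.23 at Diff.

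Pde5a, the cGMP-specific member, showed no called change in any of the 9 tested contrasts in the fit over all 12 libraries. Its libraries ranged from 0.277 to 1.82 TPM in shScram and from 0.248 to 1.16 TPM in shFTO. The lines differed by -0.34 in preadipocytes (95% interval -0.94 to 0.26, limma adjusted p = 0.341) and by -0.07 at Diff (-0.67 to 0.53, limma adjusted p = 0.891). Group means were at most 1.27 TPM, where this scale compresses changes, so the intervals leave sizeable relative changes in TPM undecided. Without replicate 2 of shScram Pre, the preadipocyte value was -0.70 (adjusted p = 0.0452) and that from Pre to MCE in shScram -0.99 (adjusted p = 0.00867).

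Counted over the 8 tested members, 3 were higher and 1 was lower in shFTO preadipocytes (Pde3b, Pde4b and Pde10a, and Pde8a), where 15.9% of all genes tested were called higher and 12.3% lower. Pde8a passed the filter only through the group where it is high, so its place in this and the later counts is no support. At Diff 4 were higher and 0 lower (Pde3b, Pde4b, Pde4d and Pde10a), against 11.9% and 9.31% of all genes. Both shFTO libraries were above both shScram libraries in 4 and below them in 3 of the 10 members at Pre (33.6% and 26.9% of genes tested), in 5 and 5 at MCE (41.1% and 30.3%), and in 5 and 3 at Diff (39.0% and 34.0%). The shares cover genes tested, while the 10 include the untested Pde3a and Pde7b. These lay below at every stage, at means of at most 0.051 and 1.27 TPM, so counts and shares are not over like sets. The median difference of the 8 was 0.40 in preadipocytes and 0.47 at Diff on the log2(TPM + 1) scale, beside 0.08 and 0.03 over all genes tested. In a fit limited to the libraries of the contrast 0 members were called in preadipocytes by limma, and 3 (Pde3b, Pde8a and Pde10a) had an unadjusted p under 0.05. At Diff 4 members were higher and 0 lower at an unadjusted p under 0.05 in the fit over all 12 libraries, and 5 were higher and 1 lower in the fit on the Diff libraries alone. No share of all genes is given for counts at an unadjusted p or from other fits, here or below. Nothing is read from such counts. At MCE, without a test, 3 of 8 exceeded a difference of 1 (Pde3b, Pde10a and Pde4d) and 0 were below -1, as were 5.24% and 4.23% of all genes; since this contrast chose Pde3b, nothing is read from that count. The knockdown difference, taken with its sign, was higher at Diff than at Pre in 2 of 8, Pde3b and Pde10a, and lower in 0, against 4.06% and 3.61% of all genes. At an unadjusted p under 0.05 it was higher in 4, with Pde4d and with Pde8a, which went from -1.07 to -0.03, and lower in 1, Pde4a, which went from 0.70 to -0.39. Leaving out replicate 2 of shScram Pre raised the 2 called to 6.

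**Figure D2:**
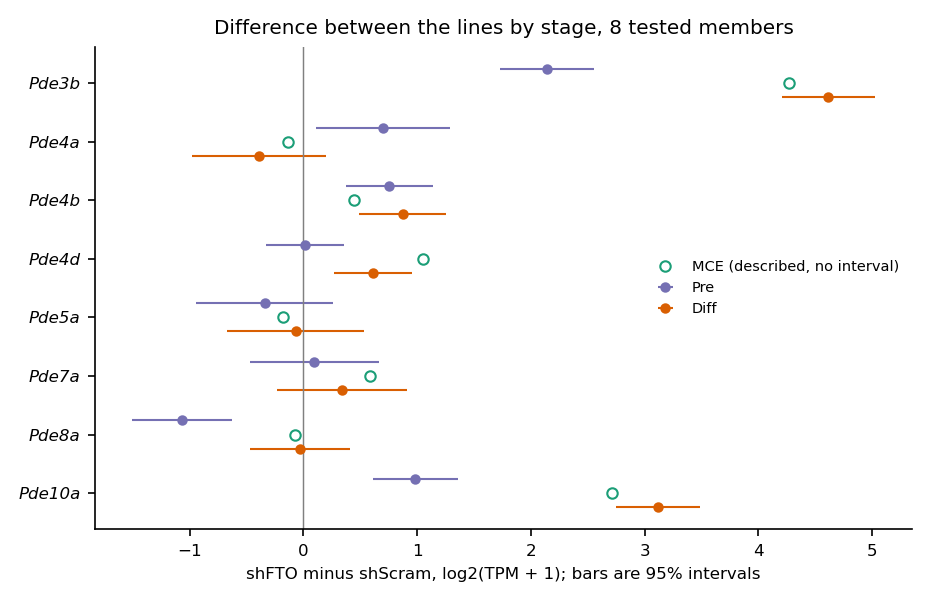
Difference between shFTO and shScram on the log2(TPM + 1) scale (x axis) for the 8 tested members (y axis); filled points with bars are limma estimates with 95% intervals at Pre and Diff, open points the MCE differences, described without an interval. Pde3b moves from 2.14 at Pre to 4.61 at Diff and Pde10a from 0.98 to 3.12, and the Pde5a and Pde7a intervals span 0. The Pde8a interval lies below 0 at Pre and spans 0 at Diff. Pde8a passed the filter only through shScram preadipocytes, so its difference at Pre was built in and is described only.

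Over the course of induction, Diff against Pre gave 4 higher and 1 lower members in shScram (Pde4a, Pde4b, Pde4d and Pde10a, and Pde8a; 13.9% and 13.2% of all genes) and 4 higher and 0 lower in shFTO (Pde3b, Pde4b, Pde4d and Pde10a; 9.84% and 8.49%), with 0 lower at an unadjusted p under 0.05 too. In contrasts with the MCE libraries, Pde3b was not counted. MCE against Pre gave 3 higher and 2 lower of 7 in each line, against 12.2% and 26.9% of genes in shScram and 8.80% and 19.9% in shFTO. Pde4b, Pde4d and Pde10a rose in both lines and Pde7a was called lower in both, in shFTO in only 7 of 21 alternatives, while Pde8a was lower in shScram and Pde4a in shFTO. Diff against MCE gave 2 higher and 2 lower of 7 in shScram (20.0% and 5.22%) and 0 higher and 2 lower in shFTO (20.2% and 6.48%), Pde4b and Pde4d falling in both; 2 members, Pde4a and Pde7a, were higher in shFTO at an unadjusted p under 0.05. As deposited, the median of all genes moved by -0.17 and -0.18 from Pre to MCE and by 0.23 and 0.17 from MCE to Diff in shScram and shFTO, so these stage values stand on a shifted centre; with median-ratio scaling the shift was at most 0.01.

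The mixture of phosphodiesterase transcripts was compared by adding the TPM of 21 genes for catalytic phosphodiesterase subunits. The sum was 113 and 81.9 TPM in shScram preadipocytes, 168 and 163 TPM at MCE, and 125 and 122 TPM at Diff. In shFTO it was 114 and 133 TPM, then 436 and 430 TPM, then 317 and 329 TPM. In preadipocytes the nearest libraries of the lines were close in sum, and shFTO stood far above shScram at both later stages. Pde3b took 1.60% to 1.67% of the sum in shScram preadipocytes and 0.589% to 1.05% at MCE and Diff, and 8.09% to 14.2% in shFTO libraries. Pde4b and Pde4d together took 52.9% to 53.7% in shScram at MCE and 34.8% to 36.3% in shFTO at MCE. These shares add up by construction, so a larger share of one gene lowers those of the others.

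**Figure D3:**
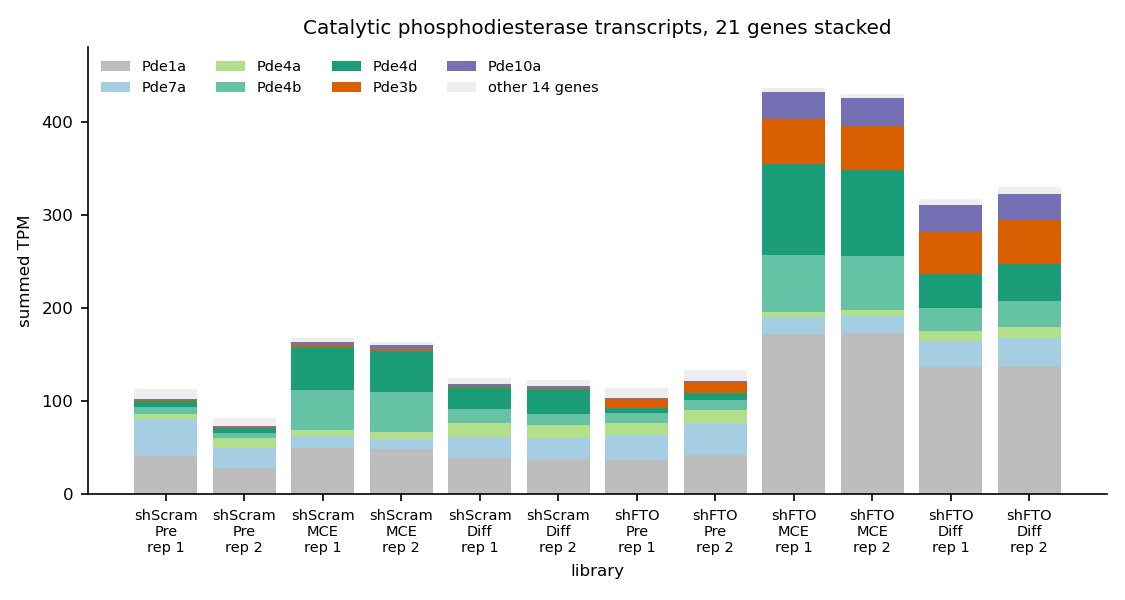
Summed TPM of 21 catalytic phosphodiesterase genes (y axis) in each of the 12 libraries (x axis), stacked by gene, with 14 low genes in the lightest block. The sum lies between 81.9 and 168 TPM in shScram and in shFTO preadipocytes, and between 317 and 436 TPM in shFTO at MCE and Diff. At these 2 stages the blocks of Pde1a, Pde4d, Pde4b, Pde7a, Pde3b and Pde10a are taller in shFTO than in shScram of the same stage, and that of Pde4a is shorter.

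Part of that sum was not from the 10 members. Of the 14 other phosphodiesterase genes, 10 stayed under a mean of 1 TPM in every group, and Pde1a, Pde1b, Pde6d and Pde8b exceeded it. Pde1a encodes a calcium- and calmodulin-activated enzyme for both cyclic nucleotides. It stood in preadipocytes at 41.5 and 28.3 TPM in control and 36.6 and 41.7 TPM in knockdown cells, at 49.9 and 49.1 against 172 and 174 TPM at MCE, and at 38.8 and 37.5 against 137 and 138 TPM at Diff. The lines overlapped in preadipocytes and were far apart later. At Diff Pde1a was 1.82 higher in shFTO (95% interval 1.45 to 2.19, limma adjusted p = 0.000108), and in preadipocytes the difference was 0.19 (-0.19 to 0.56, limma adjusted p = 0.4). Pde6d, which encodes a prenyl-binding subunit with no catalytic activity, was higher in shFTO by 0.82 in preadipocytes and 0.75 at Diff (limma adjusted p = 0.00545 and 0.00619), and Pde1b by 0.66 at Diff (adjusted p = 0.0259). Pde8b differed by 0.55 and 0.08 (adjusted p = 0.082 and 0.831).

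Genes that make cAMP were counted next. Of 7 tested genes for adenylyl cyclases and their G proteins, 3 were higher and 1 was lower in shFTO both in preadipocytes and at Diff. Among all genes tested, 15.9% were higher and 12.3% lower in preadipocytes, and 11.9% and 9.31% at Diff. Adcy3, an adenylyl cyclase, had means of 0.945 TPM in shScram and 5.75 TPM in shFTO at Diff, a difference of 1.81 (limma adjusted p = 0.00153). Adcy7 was higher by 1.88 in preadipocytes and 0.80 at Diff (limma adjusted p = 0.000204 and 0.00856), and Gnas, which encodes the stimulatory G protein, by 0.51 at Diff (adjusted p = 0.0469). Gnai3, for an inhibitory G protein, was lower at both stages (differences of -0.78 and -0.41, limma adjusted p = 0.00398 and 0.0492). Of 11 receptors coupled to cAMP only 2 passed the filter. Adora2b, the A2B adenosine receptor, was 1.55 and 1.92 higher at Pre and Diff (limma adjusted p = 0.0118 and 0.00355), and Ptger4, a prostaglandin E2 receptor, 1.09 higher at Diff (adjusted p = 0.00975). The beta-adrenergic receptor genes had means of at most 0.11 TPM in each group.

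Other genes of cyclic nucleotide signalling went both ways. Of 11 tested cAMP effectors, 3 were higher and 1 lower in shFTO preadipocytes (15.9% and 12.3% of all genes tested). At Diff 1 went each way, near the shares of all genes tested (11.9% and 9.31%). Pkig, a protein kinase A inhibitor, was higher by 1.51 and 1.42 (limma adjusted p = 0.0139 and 0.0162), Prkar2b, a regulatory subunit, lower in preadipocytes (-1.14, adjusted p = 0.00158), and the anchoring protein gene Akap13 lower at Diff (-0.89, adjusted p = 0.00124). Of 5 tested genes for natriuretic peptide receptors and cGMP-dependent kinases, 1 was higher and 1 lower in preadipocytes and 2 were higher at Diff. There the receptor gene Npr3 differed by 1.34 and the kinase gene Prkg2 by 1.32 (limma adjusted p = 0.000717 and 0.000169). Another receptor gene, Npr2, differed by 0.11 in preadipocytes and -0.07 at Diff and was not called. Of 14 tested CREB factors and cAMP-induced genes, 5 were higher and 1 lower in preadipocytes and 2 were higher at Diff, Nr4a2 by 1.26 and Fosb by 0.83 (limma adjusted p = 0.00168 and 0.0419). The shares of all genes called in these contrasts are those given for the members.

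Genes of fat breakdown and of the insulin route to Pde3b were in part lower in shFTO at Diff, where Pde3b was high. Of 11 tested, 3 were higher and 1 lower in shFTO preadipocytes, and 1 was higher and 5 were lower at Diff (Pik3r5, and Lipe, Cav1, Pnpla2, Plin1 and Irs1). The shares of all genes tested were 15.9% higher and 12.3% lower in preadipocytes, and 11.9% and 9.31% at Diff. Pik3r5 and Irs1 are named after their values were seen. Plin1, the lipid droplet coat protein perilipin, stood at Diff at 36.9 and 37.1 TPM in control and 2.65 and 2.21 TPM in knockdown cells, a difference of -3.47 (limma adjusted p = 1.95e-06). Pnpla2, adipose triglyceride lipase, differed by -1.35 and Lipe, hormone-sensitive lipase, by -1.28 (limma adjusted p = 0.00181 and 0.00624). Cav1, the caveola protein, differed by -0.87 (adjusted p = 0.00508). In preadipocytes Lipe was 0.85 higher, Akt1 1.05 and Akt2 0.76 higher, and Cav1 lower (-1.19; limma adjusted p = 0.0335, 0.0172, 0.0183 and 0.00164). Plin1 is also among the adipocyte markers, whose sum was lower in shFTO at Diff, and the part of that lower marker level in these values was not tested.

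**Figure D4:**
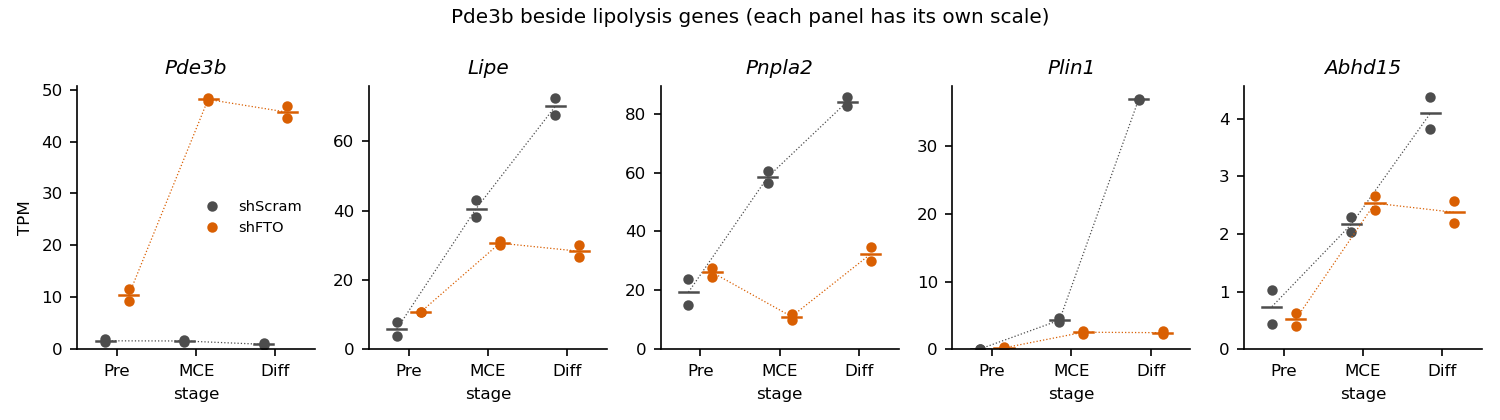
TPM of Pde3b and of Lipe, Pnpla2, Plin1 and Abhd15, genes of fat breakdown and its restraint (y axis, each panel with its own scale from 0), at Pre, MCE and Diff (x axis); points are libraries, short bars the mean of 2, grey shScram and orange shFTO. At Diff shFTO libraries lie above shScram for Pde3b, at 44.5 and 46.8 TPM, and below it for the other 4 genes, as for 34.0% of genes tested. Lipe, Pnpla2 and Plin1 were called lower by limma, and Abhd15 was not.

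Across the 6 group means, the genes whose pattern was most like that of Pde3b among 11961 genes were Fam3c, Nsg1, Cd14, Syt13 and Ak4, with Pearson correlations of log2(TPM + 1) from 0.987 to 0.996. Of the members, Pde10a was nearest at 0.84. These correlations describe 6 groups and hold no test. They do not weigh size: Fam3c means were 46.4 to 51.1 TPM in shScram and 60.3 to 73.7 TPM in shFTO. Nsg1 and Syt13 had means of at most 0.363 TPM in shScram.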

How the data were processed

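Fragmented total RNA of 3T3-L1 cells was sequenced in 12 libraries, assigned to 6 groups by their titles. The authors used Trim Galore 0.6.5 for trimming, HISAT2 2.1.0 for alignment (GRCm38) and StringTie 2.1.4 for quantification, and deposited gene-level TPM for each library. TPM keeps no depth, so 2 libraries a group limit the precision, and values are relative to all transcripts of a library.

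From these, log2(TPM + 1) was fitted with limma 3.58.1 in R 4.3.3 (a mean per group over all 12 libraries, eBayes with a trend, two-sided, Benjamini-Hochberg adjustment) for 15968 genes with at least 1 TPM in at least 2 libraries; 6 residual degrees of freedom remained. The fit was tested on simulated data. Tables and plots used Python 3.11.15, pandas 2.3.3, numpy 2.4.6 and matplotlib 3.10.9. Named genes are the 10 members, Fto, other phosphodiesterase genes with a group mean of 1 TPM or more, and up to 4 genes of each pathway list with the lowest p in a contrast. The members and all lists were chosen with earlier results of these data known. Alternatives were another pseudocount, filters, scalings, spread estimates, call rule, the replicate block and each library left out; a GC correction was added after seeing the data. Coordinates came from GENCODE M21 on GRCm38 and promoter windows from RefSeq.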

Additional observations from a re-analysis of the deposited data

Results flagged for a closer look

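The knockdown difference of Pde3b changed between stages by a test of that change, being 2.47 higher at Diff than in preadipocytes on the log2(TPM + 1) scale (limma adjusted p = 0.000986), with both shFTO libraries above both shScram libraries at each stage. The knockdown difference of Pde10a was likewise 2.14 higher at Diff than in preadipocytes (limma adjusted p = 0.0012), again with the lines apart at each stage. With a pseudocount of 0.1 this change was 1.33 and not called (limma adjusted p = 0.0504). The ratio of Pde10a means was 6.03 in preadipocytes and 11.9 at Diff. Pde4a lay in opposite directions at 2 stages, the ratio of shFTO to shScram means being 1.61 in preadipocytes, with both shFTO libraries above, and 0.900 at MCE, with both below; this difference between stages was not tested.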

How the results depend on the processing

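The limits are few libraries and unknown depth: 2 libraries a group, TPM without counts, and members that stayed under 2 TPM (Pde3a, Pde7b, Pde5a, and Pde8a after preadipocytes) whose values rest on little signal. The causes of the shifts below were not tested.

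With only the libraries of the contrast, members called became 0 of 8 in preadipocytes by limma (Pde3b 2.14, adjusted p = 0.142; 3 members had an unadjusted p under 0.05), 1 for Diff against Pre and 3 for MCE against Pre in shScram, and 4 for Diff against MCE in shFTO. The rule of a fold over 2 with an unadjusted p under 0.05 gave 2 in preadipocytes, 2 at Diff, 4 for the change of the knockdown difference, 1 for Diff against MCE in shScram and 3 for MCE against Pre in shFTO. Without a filter, Diff against MCE in shScram gave 2 and MCE against Pre in shFTO 3. The change of the knockdown difference gave 1 with a pseudocount of 0.1 and 5 with the GC correction. Pde3b at MCE was 4.87 with a pseudocount of 0.1 and 4.03 with quantile normalization, and its Diff against Pre value in shScram was -0.64 with quantile normalization (adjusted p = 0.0343).

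Leaving out each library in turn gave 2 to 6 members at Diff (2 without replicate 2 of shScram Diff or of shFTO Diff), 2 to 6 for the change of the knockdown difference (6 without replicate 2 of shScram Pre), 2 to 5 for Diff against MCE in shScram, 3 to 5 for MCE against Pre in shFTO and 2 to 4 for Diff against MCE in shFTO. Pde3b from Pre to Diff in shScram ran from -0.60 (without replicate 2 of shScram Pre, adjusted p = 0.0164) to -0.28.

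Signs turned only in values that were not called in the fit over all 12 libraries, and 1 of them, Pde4a from Pre to MCE in shScram, was called once turned. For Pde4d in preadipocytes these were -0.053 with median-ratio scaling, -0.14 with quantile normalization, -0.054 with the GC correction and -0.18 to 0.21 with libraries left out. For Pde3b from Pre to MCE in shScram they were 0.12, 0.24 and 0.44 under those 3 settings and -0.18 to 0.15. For Pde4a from Pre to MCE in shScram they were 0.10 and 0.033 with the scalings and -0.58 (adjusted p = 0.00635, without replicate 1 of shScram Pre) to 0.37 (adjusted p = 0.0390, without replicate 2), and -0.36 with the GC correction was called too (adjusted p = 0.0194). For Pde7a they were -0.044 with quantile normalization and -0.34 to 0.53 in preadipocytes, -0.79 to 0.074 and -0.29 to 0.061 from Pre to Diff in shScram and shFTO, and -0.19 to 0.68 for the change of the knockdown difference. For Pde5a they were -0.70 to 0.016 in preadipocytes, -0.34 to 0.21 at Diff, -0.59 to 0.12 and -0.24 to 0.31 from Pre to Diff in shScram and shFTO, -0.086 to 0.63 for the change of the knockdown difference, and with quantile normalization -0.17 from Pre to Diff in shFTO, -0.022 and -0.049 from MCE to Diff in shScram and shFTO. For Pde8a they were -0.12 to 0.063 at Diff, -0.16 with quantile normalization and -0.044 with the GC correction from MCE to Diff in shScram, and -0.23 with quantile normalization in shFTO. For Pde4b the change of the knockdown difference ran from -0.097 to 0.33.

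The replicate numbers did not pair the libraries: of 15 pairs of groups, 2 had deviations that correlated over 0.1, in a range from -0.29 to 0.17. With the replicate block Pde3b differed by 2.14 in preadipocytes and 4.61 at Diff, the members called were 4 at each, and the 1 call lost was Pde7a from Pre to MCE in shFTO (-0.78, adjusted p = 0.0604).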
